A study of Mus musculus with 4 samples.

Results

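Interleukins and their receptors were followed through single-cell RNA sequencing (scRNA-seq) of MC38 tumors. All genes whose symbol begins with Il and a digit were taken, and 71 of 85 such genes reached the minimum of 20 unique molecular identifiers (UMIs, each counting 1 captured RNA molecule) over the 4 libraries. The files list 32285 genes in all. The 14 genes below the minimum included Il3, Il9, Il1f8, Il1f10 and the 3 rows of Il11ra2, which had 0 UMIs each, as well as Il22 and Il25 with 5 UMIs each. Just below the minimum stood Il20ra (19 UMIs), Il1f6 (14) and Il31 (13), and just above it Il17a and Il21 (32 each) and Il22ra2 (46). The most counted were Il1rl1 (150108 UMIs), Il1b (95976), Il1rn (37679), Il33 (33363) and Il13ra1 (27375). By family, the genes comprised 16 of the IL-1 family, 13 of the common gamma chain family, 10 of the IL-17 family, 8 each of the gp130 and IL-10 families, 6 of the IL-12 family, 6 of the common beta chain family with Il13, and 4 others. The others include Il4i1, an L-amino acid oxidase that carries the prefix without being an interleukin, and Il1bos, a transcript antisense to Il1b.

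Interleukins are secreted messengers with which immune cells, stroma and epithelium signal to one another, and most act over short distances through receptors built from a private chain and a chain shared within the family. The IL-1 family is regulated at several levels, with agonists such as IL-1 and IL-33, a soluble antagonist (Il1rn), a decoy receptor (Il1r2) and a binding protein (Il18bp). In tumors, myeloid cells are a known source of IL-1, T cells respond to IL-2, IL-7 and IL-15 through the shared gamma chain, and regulatory T cells are known for high levels of the IL-2 receptor alpha chain and for IL-10.

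MC38 is a mouse colon adenocarcinoma line, grown here under the skin of young adult C57BL/6 mice, and its cells had wild-type (WT) RAC1, a signaling GTPase, or RAC1 A159V, introduced on both alleles of the endogenous gene by CRISPR-Cas9 in cells grown from a clone. Mice were given an antibody against PD1, an inhibitory receptor of T cells, or an IgG isotype control, which made 4 groups of 1 library each, called WT IgG and WT anti-PD1, and A159V IgG and A159V anti-PD1. Lists of 4 values below follow this order of groups. Before loading, CD45+ immune cells and the CD45− rest were parted with beads and mixed again, so that the share of a cell class in a library describes the mixing as well. How many animals went into each library is not given in the sources used here, and the RAC1 genotype cannot be read from counts of RNA 3′ ends. With 1 library per group no test was possible, and the 95% intervals given throughout cover only counting error.

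The libraries held 7430 to 9311 cells and 54402632 to 125227747 UMIs, and 6466 to 8248 cells with a median of 3387 to 4201 UMIs were analyzed in each. Cells were gated into classes by marker genes, with no interleukin or receptor gene among the markers. The name tumor-like rests on Rhox5, Prl2c2 and Prl2c3, since the epithelial markers Krt8 and Epcam were nearly absent from these cells. The WT anti-PD1 library stood apart. It held 27 tumor-like cells against 1745, 2763 and 2053 in WT IgG and the A159V libraries, and it held 1558 stromal-like cells against 135 to 187 in the others, nearly all endothelial-like cells (157) and all 30 mast or basophil-like cells. Its macrophage and monocyte-like cells were also composed differently, with 328 monocyte-like and 1262 macrophage-like cells against 1897 and 812 in WT IgG. Each pair of libraries shared 13 to 22 cell barcodes, at most 0.269% of the smaller library. Levels are given in CPM, where the UMIs of a gene, summed over the cells of a class in 1 library, are scaled so that all genes add up to the same total in each sum. Since only RNA 3′ ends were counted, levels are compared between classes and libraries for 1 gene and not between genes.

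Of the 71 genes, 45 reached 20 CPM on average over libraries in their highest class. Only libraries with at least 50 cells of a class entered its average. Averages for endothelial-like cells thus rest on 1 library, WT anti-PD1, and those for tumor-like cells on 3 libraries without it. Highest levels were in neutrophil-like cells for 18 genes, T-like cells for 16, stromal-like cells for 10, tumor-like cells for 7, and for 5 each in NK-like, macrophage and monocyte-like, endothelial-like and dendritic-like cells. In the same order, 13, 7, 7, 1, 4, 5, 4 and 4 of these were among the 45. Below 20 CPM the highest class can rest on few counts. Il17f, for example, averaged 0.297 CPM in NK-like and 0.296 CPM in tumor-like cells. The heat map of the 45 genes shows few genes spread evenly over the classes. Il12b, the p40 subunit of IL-12 and IL-23, averaged 201 CPM in dendritic-like cells and 2.83 CPM in the next class, macrophage and monocyte-like cells. Il1f9, the gene of IL-36 gamma, averaged 502 CPM in neutrophil-like cells and 1.41 CPM in the next class. Some neighbors in the order were not separated by more than the spread between libraries: Il18r1, a chain of the IL-18 receptor, ranged from 256 to 404 CPM in T-like cells and from 182 to 528 CPM in NK-like cells, and Il12rb2, Il21r, Il15ra and Il4ra had overlapping ranges in their highest 2 classes as well.

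**Figure D1:**
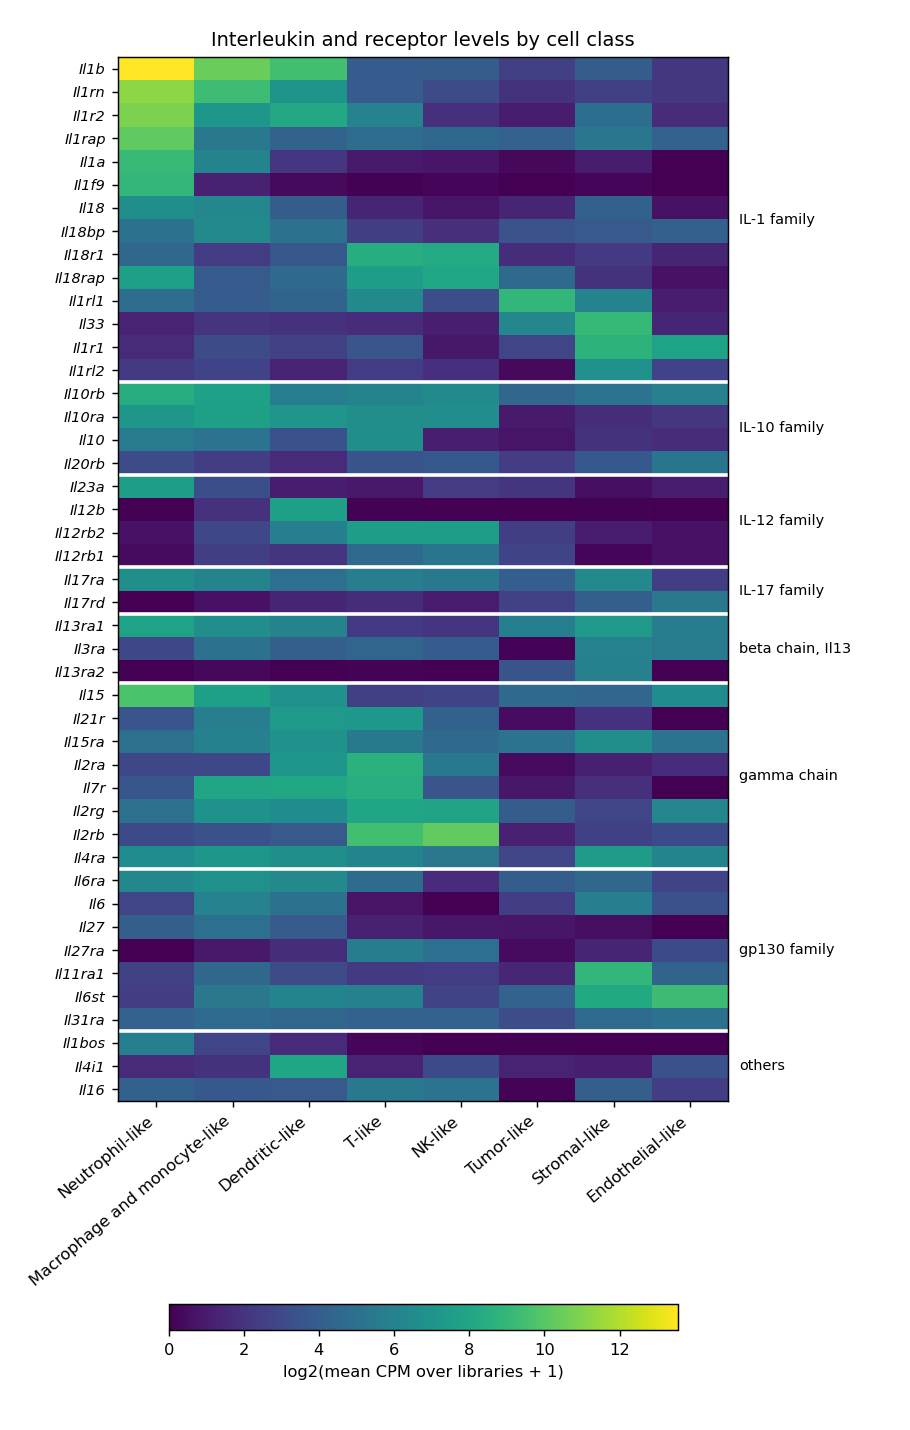
Levels of the 45 interleukin and receptor genes with at least 20 CPM in their highest class, in rows grouped by family, across 8 cell classes in columns; color gives log2 of the mean CPM over libraries plus 1. Il1b in neutrophil-like cells, at a mean of 11967 CPM, is the brightest field, and the IL-1 family genes at the top divide between neutrophil-like, T-like and NK-like, tumor-like and stromal-like columns.

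The IL-1 family receptor genes from Il1r2 to Il18rap stand side by side on chromosome 1 (GRCm38, plus strand), and neighbors differed in the class that held them. Il1rap lies on chromosome 16, and Il1rapl1 and Il1rapl2 lie on chromosome X. Il1r2, the decoy receptor (40074079 to 40125231), was highest in neutrophil-like cells (1567 to 2255 CPM). Il1r1, the signaling IL-1 receptor (40225080 to 40317257), and Il1rl2, the IL-36 receptor (40324610 to 40367562), were highest in stromal-like cells, at 338 to 533 CPM and 88.9 to 133 CPM. Il1rl1 (40429570 to 40465415), which encodes the IL-33 receptor ST2, was highest in tumor-like cells, while the next genes, Il18r1 (40465552 to 40500854) and Il18rap (40515362 to 40551705), were highest in T-like and NK-like cells. Il18rap also stood at 166 to 322 CPM in neutrophil-like cells. In tumor-like cells Il18r1, whose annotated start lies just past the end of Il1rl1, stayed at 1.66 to 8.51 CPM, beside 175 to 722 CPM of Il1rl1.

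Il1rl1 and Il33, a receptor and the ligand that binds it, were both higher in the tumor-like cells of the A159V libraries. IL-33 is kept in the nucleus of stromal and epithelial cells and is known as an alarm signal released on damage. Il1rl1 (ENSMUSG00000026069) measured 175 CPM (172 to 179) in tumor-like cells of WT IgG. In the A159V tumors it measured 599 CPM (594 to 604) with IgG and 722 CPM (716 to 727) with anti-PD1. The 27 tumor-like cells of WT anti-PD1 gave 277 CPM (251 to 305), between WT IgG and the A159V libraries. Between the IgG libraries the log2 ratio of A159V over WT (with 1 CPM added to each level, as throughout) was 1.77 (1.74 to 1.80). Il33 (ENSMUSG00000024810, chromosome 19, 29925114 to 29960718) measured 22.2 CPM in WT IgG, 50.4 CPM in WT anti-PD1, 93.8 CPM in A159V IgG and 109.9 CPM in A159V anti-PD1, with a log2 ratio of 2.03 (1.95 to 2.11) for A159V over WT. Both genes stood in the same order of libraries, with WT IgG the lowest and A159V anti-PD1 the highest.

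Tumor-like cells fell mainly into 3 clusters, which the libraries filled unequally, since 896 of the WT IgG cells but 115 of the A159V IgG cells lay in the first and 261 and 1708 in the last. Within each of these clusters A159V IgG stood above WT IgG. Il1rl1 went from 174 to 524 CPM in the first, from 177 to 732 CPM in the second and from 174 to 533 CPM in the third. Il33 went from 27.4 to 135 CPM, from 17.3 to 123 CPM and from 20.2 to 77.0 CPM. The log2 ratios within clusters ranged from 1.58 to 2.04 for Il1rl1 and from 1.88 to 2.76 for Il33, as shown in the plot of levels in tumor-like and stromal-like cells.

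**Figure D2:**
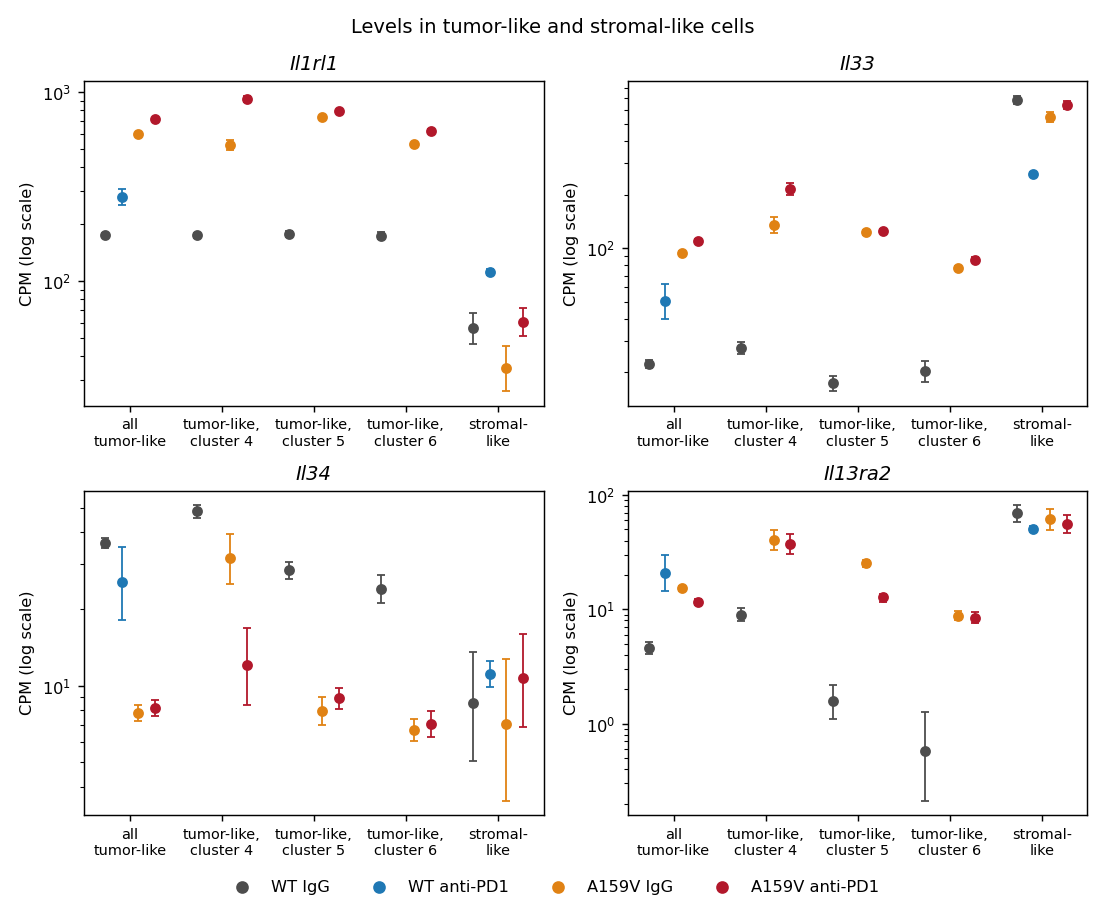
Levels in CPM (log scale) of Il1rl1, Il33, Il34 and Il13ra2 in all tumor-like cells, in the 3 clusters that hold most of them and in stromal-like cells, with 1 point per library and 95% Poisson intervals; WT anti-PD1 is not drawn in single clusters, where it had few cells. Il1rl1 and Il33 lie above WT IgG in both A159V libraries in every cluster, whereas Il33 in stromal-like cells is higher than in tumor-like cells of the same library.

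The difference was spread over many cells. A UMI of Il1rl1 was found in 53.1% of tumor-like cells in WT IgG, and in A159V tumors in 94.2% with IgG and 97.1% with anti-PD1. After every cell was thinned to 1500 UMIs the shares were 16.8% (15.1 to 18.6), 48.2% (46.3 to 50.1) and 56.4% (54.2 to 58.5), with 2 cells, 1 cell and 4 cells too shallow to be used. The median tumor-like cell held 31348 UMIs in WT IgG, and in A159V tumors 31308 with IgG and 42809 with anti-PD1. The thinned shares for Il33 were 2.18%, 11.2% and 11.8%. T-like cells, which should lack Il33, had thinned Il33 shares of 0.136% to 0.976%, below the share in tumor-like cells of each of these libraries. Both genes were found together in 6.07% of tumor-like cells in WT IgG, and in A159V tumors in 42.9% with IgG and 49.8% with anti-PD1, without thinning. Of the 27 tumor-like cells of WT anti-PD1, whose median depth was 49192 UMIs, 81.5% had Il1rl1, 59.3% had Il33 and 48.1% had both, so that this WT library was not below the A159V libraries in its shares of Il33 cells.

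The cells that supplied these transcripts shifted with the library. Il33 was highest in stromal-like cells (gated by collagen and other fibroblast genes) at 686 CPM in WT IgG, 262 CPM in WT anti-PD1, 549 CPM in A159V IgG and 639 CPM in A159V anti-PD1. Of all Il33 UMIs in gated cells, stromal-like cells held 51.7% in WT IgG and 98.3% in WT anti-PD1, against 9.15% and 12.3% in the A159V libraries, where tumor-like cells held 90.5% and 87.1%. Tumor-like cells held 97.8% of Il1rl1 UMIs in WT IgG and at least 99.0% in the A159V libraries, against 9.79% in WT anti-PD1. These shares follow the number of cells of each class as well as their levels, and the classes were remixed before loading.

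The promoters of both genes are shown because Il1rl1 and Il33 differed together, and because ST2 transcripts are known to start from separate promoters in different cell types. The 250 bases before each annotated start come from RefSeq (GRCm38.p6). Capitals mark matches to the GATA motif, searched on both strands as AGATAA with its variant AGATAG and as TGATAA with its variant TGATAG, which exclude one another at a position of 1 strand. The first Il1rl1 start (chr1:40429320-40429569, plus strand) held 5 matches and the second (chr1:40439379-40439628, plus strand) held 1 match, while the first Il33 start (chr19:29924863-29925112, plus strand) held 0. A second Il33 start (chr19:29945540-29945789, plus strand), whose letters are not shown, also held 0. Among 32851 windows of the same length, 26.5% held a match and 0.0426% held 5 or more.
Il1rl1 first start: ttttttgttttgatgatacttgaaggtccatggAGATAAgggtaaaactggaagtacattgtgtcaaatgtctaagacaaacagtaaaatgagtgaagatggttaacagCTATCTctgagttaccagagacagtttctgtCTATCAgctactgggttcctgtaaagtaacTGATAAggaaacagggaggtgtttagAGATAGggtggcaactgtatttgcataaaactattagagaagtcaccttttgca
Il1rl1 second start: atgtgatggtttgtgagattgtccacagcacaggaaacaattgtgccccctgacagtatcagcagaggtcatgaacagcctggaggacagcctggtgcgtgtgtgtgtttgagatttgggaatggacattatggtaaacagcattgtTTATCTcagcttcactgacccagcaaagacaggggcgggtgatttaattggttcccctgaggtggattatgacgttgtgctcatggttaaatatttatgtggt
Il33 first start: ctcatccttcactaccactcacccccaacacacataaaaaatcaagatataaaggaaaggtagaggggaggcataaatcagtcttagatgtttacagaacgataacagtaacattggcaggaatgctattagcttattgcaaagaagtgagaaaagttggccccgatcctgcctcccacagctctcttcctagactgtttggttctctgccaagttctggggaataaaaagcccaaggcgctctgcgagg
The counts come from RNA 3′ ends, so they do not show which start was used, and a match is a description of the letters only.

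Across the interleukin and receptor genes, 16 could be compared in tumor-like cells of A159V IgG and WT IgG, and 6 of them passed 2-fold, 3 in each direction. A gene was counted as past 2-fold at a log2 ratio of at least 1 in size, with an interval that leaves out 0 and with 10 CPM and 20 UMIs in the higher library. Of all genes that could be compared 5.37% passed by the same rule. The median log2 ratio was -0.42 over the 16 genes and -0.01 over all genes. Within the 3 clusters the balance differed, with 4, 4 and 3 genes higher and 1 lower in each, where 3.59%, 3.27% and 3.02% of all genes passed. The median within clusters was 0.30, -0.02 and 0.05 over the interleukin and receptor genes. Beside Il1rl1 and Il33, the third gene that was higher was Il13ra2, the decoy receptor of IL-13, at 4.63 CPM in WT IgG, 20.9 CPM in WT anti-PD1, 15.2 CPM in A159V IgG and 11.5 CPM in A159V anti-PD1. Few cells carried it, with a UMI in 4.53% of tumor-like cells in WT IgG and 12.8% in A159V IgG, and in WT anti-PD1 its 32 UMIs came from 5 cells. Within the 3 clusters its log2 ratios were 2.06, 3.36 and 2.64, although the level in the third stayed at 8.82 CPM or less.

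Il34, a ligand of the macrophage receptor CSF1R, was the gene with the largest difference downwards. It measured 36.3 CPM in WT IgG and 25.5 CPM in WT anti-PD1, against 7.81 CPM in A159V IgG and 8.19 CPM in A159V anti-PD1. The log2 ratio between the IgG libraries was -2.08 (-2.19 to -1.97), and within the 3 clusters it was -0.60, -1.71 and -1.69. Thus both WT libraries lay above both A159V libraries, and the first cluster, at 48.3 and 31.6 CPM, differed by less than 2-fold. Il6st, the shared signaling chain gp130, went from 27.5 to 12.5 CPM, and Il2rg, the common gamma chain, from 21.8 to 10.1 CPM. Neither passed 2-fold within a cluster: the log2 ratios were -0.73 to -0.51 for Il6st and -0.33 to -0.13 for Il2rg. Under a stricter gate the ratio was -0.98 for Il6st and -0.79 for Il2rg. Il2rg overlaps another annotated transcript on the same strand, which makes its counts uncertain.

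Over all tumor-like cells, none of 15 interleukin and receptor genes passed 2-fold in A159V anti-PD1 over A159V IgG, where 0.151% of all genes did. The log2 ratio was 0.27 (0.25 to 0.29) for Il1rl1, 0.23 (0.18 to 0.27) for Il33, 0.06 (-0.07 to 0.19) for Il34 and -0.37 (-0.48 to -0.26) for Il13ra2. The median over the 15 genes was 0.35 and that over all genes 0.08. The same comparison in WT tumors was not made, since 27 tumor-like cells are too few for a profile of at least 50 cells.

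The level of Il1b was highest in neutrophil-like cells. IL-1 beta is made as an inactive precursor, which inflammasomes cut, so that RNA is an early step in its regulation. Il1b (ENSMUSG00000027398, chromosome 2, 129364570 to 129371139, minus strand) measured 15781 CPM in neutrophil-like cells of WT IgG, 14206 CPM in WT anti-PD1, 9366 CPM in A159V IgG and 8516 CPM in A159V anti-PD1. Both WT libraries stood above both A159V libraries. Macrophage and monocyte-like cells had 1447, 756, 1504 and 1856 CPM in the same order, and dendritic-like cells 635 to 878 CPM. Because neutrophil-like cells were few (77, 505, 72 and 181 cells), macrophage and monocyte-like cells held 83.9%, 85.5% and 85.6% of gated Il1b UMIs in WT IgG, A159V IgG and A159V anti-PD1. In WT anti-PD1 neutrophil-like cells held 61.0% of them and macrophage and monocyte-like cells 31.5%.

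Regulators of IL-1 were in the same cells. Il1rn, the receptor antagonist, had 2064, 3152, 2074 and 2272 CPM in neutrophil-like cells, and 630.0 to 670.2 CPM in macrophage and monocyte-like cells. Il1r2 had 1567 to 2255 CPM and Il1rap, the accessory chain that signaling IL-1 receptors share, 943 to 1636 CPM in neutrophil-like cells. Il1a, the gene of IL-1 alpha, differed more between libraries, at 879 CPM in WT IgG, 730.4 CPM in WT anti-PD1, 208 CPM in A159V IgG and 539.8 CPM in A159V anti-PD1, where the A159V IgG value rests on 21 UMIs. Il1f9 had 224, 978, 506 and 302 CPM, and Il23a, the p19 subunit of IL-23, had 108, 539, 19.8 and 60.4 CPM. Both were highest in WT anti-PD1, and Il23a in A159V IgG rests on 2 UMIs. The antisense transcript Il1bos stood at 29.8 to 98.5 CPM in neutrophil-like cells and 2.90 to 9.51 CPM in macrophage and monocyte-like cells.

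**Figure D3:**
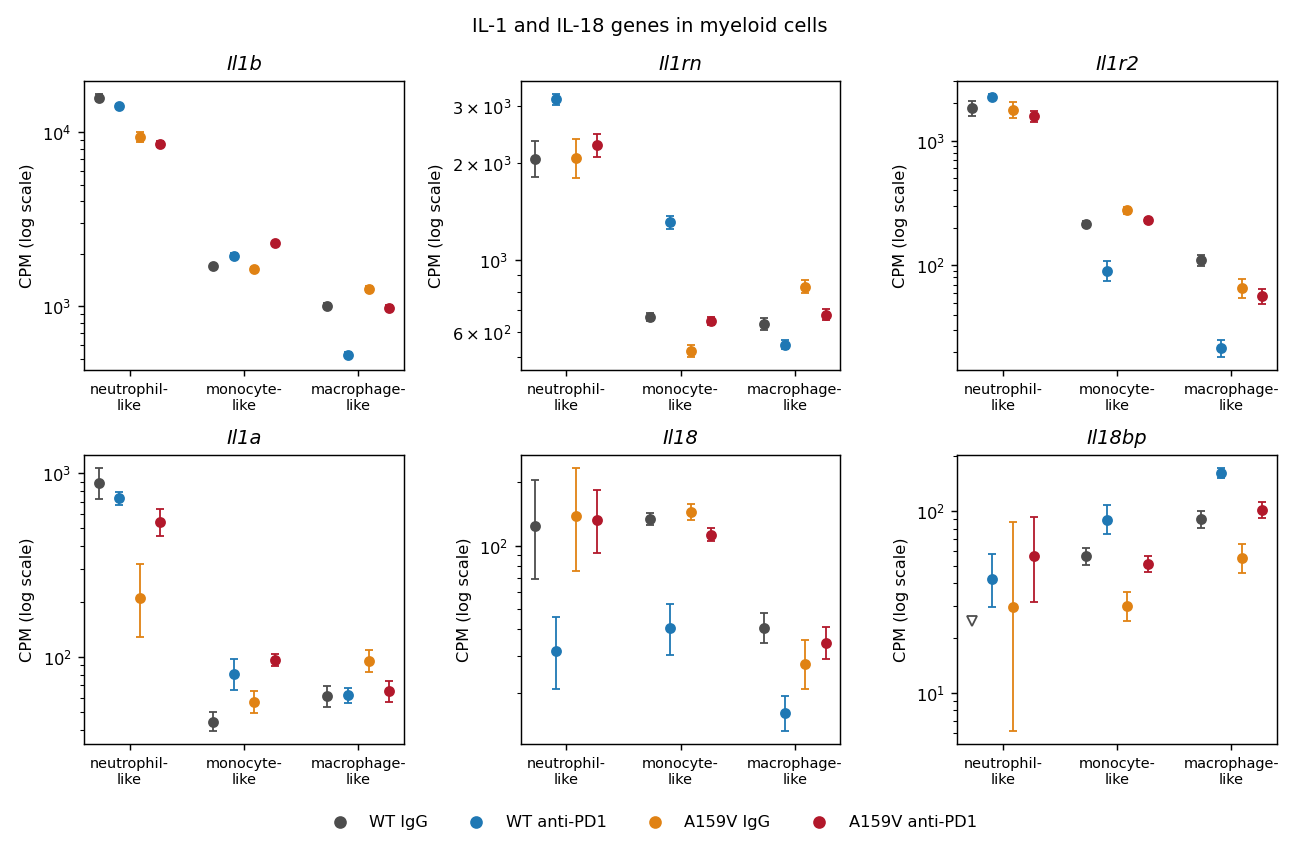
Levels in CPM (log scale) of 6 genes of the IL-1 and IL-18 system in neutrophil-like, monocyte-like and macrophage-like cells, with 1 point per library and 95% Poisson intervals; the open triangle marks 0 UMIs, drawn at the level of 3 counts. Il1b in WT anti-PD1 is the lowest point among macrophage-like cells, at 528 CPM, but not among monocyte-like cells, at 1942 CPM, while Il1r2 and Il18 of that library are the lowest points in both.

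In macrophage and monocyte-like cells most interleukin and receptor genes kept their level between A159V IgG and WT IgG. Of 29 genes 2 passed 2-fold, and of all genes 0.904% did. The median log2 ratio was 0.05 over these genes and 0.01 over all genes. Il2rb, a signaling chain of the IL-2 and IL-15 receptors, went from 3.92 to 14.9 CPM (log2 ratio 1.70, 1.24 to 2.15), and 78 of its UMIs in A159V IgG came from 24 monocyte-like cells. With classes taken from clusters its log2 ratio was 0.40 (-0.16 to 0.97), and under a stricter gate 0.62 (-0.16 to 1.40). Il1rl1 measured 4.92 and 5.07 CPM in the WT libraries with IgG and anti-PD1, against 22.6 and 25.9 CPM in the A159V libraries. Rhox5, a marker of tumor-like cells, stood at 22.1 CPM in these myeloid cells of WT IgG. In A159V IgG it stood at 29.5 CPM and in A159V anti-PD1 at 22.9 CPM. The part of stray tumor RNA in Il1rl1 was not tested. At the ratio to Rhox5 seen in tumor-like cells, the Rhox5 counts in these myeloid cells went with 3.96 CPM of Il1rl1 in WT IgG, 16.0 CPM in A159V IgG and 15.6 CPM in A159V anti-PD1.

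Between WT anti-PD1 and WT IgG, 10 of 31 genes passed 2-fold in macrophage and monocyte-like cells, 5 in each direction, where 15.6% of all genes did. The median log2 ratio was 0.01 over the 31 genes and 0.09 over all genes. Genes that were lower included the decoy receptor Il1r2, from 177 to 32.6 CPM (log2 ratio -2.40, -2.58 to -2.22), and Il18, a cytokine that drives interferon gamma in T and NK cells, from 99.8 to 19.9 CPM (-2.27, -2.50 to -2.04). Il15, a survival factor of CD8 T and NK cells, went from 233 to 103 CPM (-1.17), Il27, a regulator of T cells, from 35.9 to 15.7 CPM (-1.15) and Il17ra, the receptor chain of IL-17, from 75.7 to 29.2 CPM (-1.35). Genes that were higher included Il18bp, the inhibitor of IL-18, from 68.8 to 151 CPM (1.12, 0.99 to 1.25), and Il11ra1, the IL-11 receptor, from 8.54 to 59.0 CPM (2.65). The ligand Il18 and its inhibitor thus stood in opposite directions in this pair of libraries. Il1r1, Il1rl2 and Il2rb stood at 14.4, 12.8 and 11.7 CPM, with log2 ratios of 1.5, 1.55 and 1.37. With classes taken from clusters, which put other cells together, the ratio of Il1r2 was -1.13 and that of Il18bp 0.96, and with predicted doublets kept that of Il2rb was 0.66. Under a stricter gate it was 0.78.

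The mix of monocyte-like and macrophage-like cells differed between these libraries, and the comparison was repeated in each. In both, 4 genes were higher and 2 lower, where 13.6% of all genes passed in macrophage-like and 14.99% in monocyte-like cells, and the median over the interleukin and receptor genes was 0.06 and 0.39. Il18 was lower in both, from 40.6 to 16.0 CPM in macrophage-like cells and from 134 to 40.4 CPM in monocyte-like cells, and so was Il1r2, from 109.7 to 21.6 CPM and from 215 to 89.9 CPM. Il15, Il17ra, Il27 and Il18bp kept their directions and did not pass 2-fold in either. The log2 ratios were -0.51 and -0.40 for Il15, and 0.85 and 0.66 for Il18bp, in macrophage-like and monocyte-like cells. Il11ra1 stood at 68.9 against 13.4 CPM in macrophage-like cells and at 7.49 against 5.70 CPM in monocyte-like cells. Stromal-like cells are the class with the highest Il11ra1, and at their ratio to Col3a1 the collagen counts in macrophage and monocyte-like cells of WT anti-PD1 went with 2.26 CPM of Il11ra1, 2.51 CPM of Il1r1 and 0.896 CPM of Il1rl2. Il11ra1 overlaps Galt on the same strand, which makes its counts uncertain.

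For Il1b the sum over both kinds of cell hid opposite directions. Monocyte-like cells had 1701 CPM in WT IgG and 1942 CPM in WT anti-PD1, macrophage-like cells 1008 and 528 CPM. Il1rn moved likewise, from 668 to 1312 CPM in monocyte-like cells and from 635 to 547 CPM in macrophage-like cells. In monocyte-like cells the log2 ratio of Il2rb was 3.32, with 65 UMIs from 11 cells in WT anti-PD1.

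Anti-PD1 in A159V tumors went with a smaller difference in macrophage and monocyte-like cells. Only Il16, a CD4-binding chemoattractant, passed 2-fold among 29 genes, from 16.5 to 7.70 CPM (log2 ratio -1.0, -1.39 to -0.62), where 0.992% of all genes passed. It did not pass with doublets kept (-0.96), with classes taken from clusters (-0.90) or under a stricter gate (-0.82). The medians were 0.06 and 0.01. Il18 had 103 and 85.8 CPM, Il15 274 and 208 CPM, and Il1b 1504 and 1856 CPM in A159V IgG and A159V anti-PD1. Il18 in monocyte-like cells was thus 144 and 113 CPM in the A159V libraries, beside 134 and 40.4 CPM in the WT libraries.

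In T-like cells Il4, Il5 and Il13 stood out in the WT anti-PD1 library. These cytokines of type 2 T helper cells lie together on chromosome 11, and their transcription depends on GATA3, which also acts at Il1rl1. Il4 (ENSMUSG00000000869, 53602982 to 53618669) measured 1.25 CPM (0.340 to 3.19) in WT IgG and 40.1 CPM (34.4 to 46.6) in WT anti-PD1, against 6.70 and 4.48 CPM in the A159V libraries. Il5 (ENSMUSG00000036117, 53720794 to 53725106) measured 1.56, 44.1, 2.23 and 4.11 CPM, and Il13 (ENSMUSG00000020383, 53631324 to 53634702) 3.43, 53.8, 4.46 and 10.5 CPM in the same order. The WT anti-PD1 value was the highest for each, and the other 3 libraries rested on 3 to 28 UMIs. The log2 ratios of WT anti-PD1 over WT IgG were 4.20 (3.38 to 5.01), 4.14 (3.34 to 4.93) and 3.63 (2.94 to 4.31).

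Few cells carried these transcripts. A UMI of Il4, Il5 or Il13 was found in 46 of 1125 T-like cells in WT anti-PD1, which is 4.09% (3.01 to 5.42), against 10 (1.19%) in WT IgG, and 6 (1.07%) and 11 (1.25%) in the A159V libraries with IgG and anti-PD1. In WT anti-PD1 16 of the 46 held at least 2 of the 3 genes. Over cells of every kind, T-like cells included, such a UMI was found in 29, 98, 38 and 38 cells of the 4 libraries. Many carrying cells thus lay outside the T-like class. Of the 46 cells 31 had Cd4 without Foxp3, 2 were Treg-like, 13 had no subset marker and none had CD8 or gamma-delta markers. The 1 cell with the most Il4 held 31.0% of the Il4 UMIs, and the corresponding shares were 26.7% for Il5 and 19.7% for Il13. Il1rl1 was found in 54.3% of these cells against 8.71% of the other T-like cells of that library, and Gata3 in 76.1% against 40.6%. Their median depth was 4560.5 UMIs, against 3284 UMIs over all T-like cells of that library, and the part of depth in these shares was not tested.

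Promoter windows of the 3 cytokine genes are shown because their transcripts were higher together and in cells with Gata3 counts. Motif, capitals and source are as for Il1rl1. The first Il4 start (chr11:53618666-53618915, minus strand) held 0 matches, and the Il13 start (chr11:53634703-53634952, minus strand) and the Il5 start (chr11:53720544-53720793, plus strand) held 1 match each. A second Il4 start (chr11:53617339-53617588, minus strand), whose letters are not shown, held 1 match.
Il4 first start: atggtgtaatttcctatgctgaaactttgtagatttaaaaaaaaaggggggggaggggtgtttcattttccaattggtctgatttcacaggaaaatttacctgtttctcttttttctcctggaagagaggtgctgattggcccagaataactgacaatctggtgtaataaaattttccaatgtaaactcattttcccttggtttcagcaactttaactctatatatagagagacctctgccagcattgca
Il13 start: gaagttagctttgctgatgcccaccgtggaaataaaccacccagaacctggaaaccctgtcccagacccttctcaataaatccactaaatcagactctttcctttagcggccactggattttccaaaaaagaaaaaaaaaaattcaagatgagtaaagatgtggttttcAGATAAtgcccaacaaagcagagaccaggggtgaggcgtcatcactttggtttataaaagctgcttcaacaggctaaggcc
Il5 start: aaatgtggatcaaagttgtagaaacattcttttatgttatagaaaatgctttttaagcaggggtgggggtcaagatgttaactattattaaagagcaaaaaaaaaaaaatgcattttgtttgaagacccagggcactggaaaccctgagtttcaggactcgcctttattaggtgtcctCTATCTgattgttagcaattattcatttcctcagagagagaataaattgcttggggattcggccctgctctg
With 26.5% of all windows holding a match, a single match is common.

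Of 33 interleukin and receptor genes that could be compared in T-like cells, 8 passed 2-fold in WT anti-PD1 over WT IgG, all of them higher in WT anti-PD1, where 12.6% of all genes passed. The median log2 ratio was 0.49 over the 33 genes and 0.22 over all genes. Scaling by the median of ratios took 0.21 from every log2 ratio and left 6 of the 8 past 2-fold, without Il2ra (0.87) and Il15ra. With classes taken from clusters Il2ra was at 0.97. Il10, a suppressive cytokine, measured 73.2 CPM in WT IgG, 242 CPM in WT anti-PD1, 63.2 CPM in A159V IgG and 53.8 CPM in A159V anti-PD1, a log2 ratio of 1.71 (1.51 to 1.92) between the WT libraries. Il2ra, the high-affinity chain of the IL-2 receptor, measured 284, 601, 310.2 and 384 CPM (log2 ratio 1.08, 0.97 to 1.19), and Il1rl1 19.0, 179, 49.1 and 77.7 CPM (3.17, 2.81 to 3.53). Il15ra, which presents IL-15, went from 35.8 to 75.7 CPM (1.06). The growth factor Il2 went from 1.87 to 15.7 CPM (2.54), with 68 UMIs from 12 cells, of which 1 held 45.6%.

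The subsets show where these transcripts were. Among CD4 T-like cells without Foxp3 (89, 150, 71 and 100 cells in the 4 libraries, WT IgG first), Il4 had 4.27, 139.9, 37.9 and 39.2 CPM, Il5 8.54, 294, 0 and 47.9 CPM and Il13 42.7, 281, 7.59 and 122 CPM. CD8 T-like cells had 0 UMIs of all 3 genes in all 4 libraries. Treg-like cells (116, 145, 37 and 110 cells) had the highest Il2ra, at 894, 2006, 1384 and 1260.2 CPM, and Il10 at 303, 671, 221 and 134 CPM. Il1rl1 was higher in WT anti-PD1 in both CD4 subsets, at 557 against 51.2 CPM in cells without Foxp3 and 321 against 39.6 CPM in Treg-like cells, but it had 3.61 against 6.65 CPM in CD8 T-like cells. The 37 Treg-like cells of A159V IgG are too few for a comparison, so no direction is read from Il10 in Treg-like cells of the A159V libraries. In CD4 T-like cells without Foxp3, Il10 had 83.5 CPM in A159V IgG and 187 CPM in A159V anti-PD1.

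**Figure D4:**
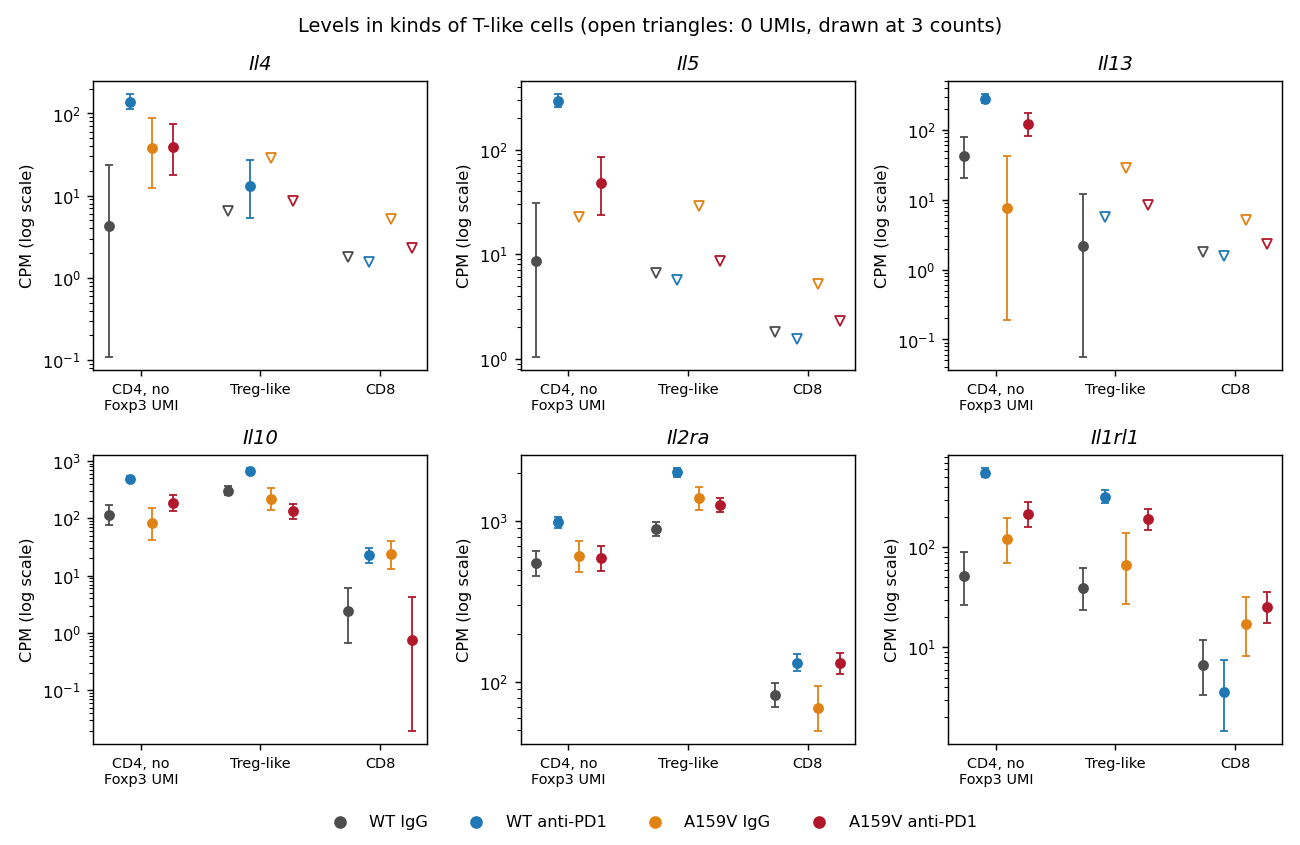
Levels in CPM (log scale) of Il4, Il5, Il13, Il10, Il2ra and Il1rl1 in CD4 T-like cells without Foxp3, Treg-like cells and CD8 T-like cells, with 1 point per library and 95% Poisson intervals; open triangles mark 0 UMIs, drawn at the level of 3 counts. WT anti-PD1 is the highest library for all 6 genes among CD4 T-like cells without Foxp3, and all CD8 points for Il4, Il5 and Il13 are open.

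Thinning changed the picture for some of these genes. The share of T-like cells with an Il2ra UMI at 1500 UMIs per cell was 22.1% (19.2 to 25.3) in WT IgG and 27.8% (25.1 to 30.6) in WT anti-PD1, and 18.5% and 25.7% in the A159V libraries, with 102, 99, 199 and 162 cells too shallow to be used. Without thinning the shares were 34.6%, 35.4%, 23.3% and 32.4%. Macrophage and monocyte-like cells, which should have little Il2ra, had thinned shares of 0.510% to 0.924%. For Il10 the thinned shares of T-like cells were 7.47%, 8.87%, 3.86% and 4.60%, with overlapping intervals between the WT libraries. Its level there rested on 1051 UMIs in 133 cells, against 235 UMIs in 74 cells of WT IgG, so that the cells with Il10 also held more of it. For Il1rl1 the thinned shares were 2.58%, 7.89%, 4.41% and 9.62%, unlike the levels, which were highest in WT anti-PD1. Macrophage and monocyte-like cells had thinned Il1rl1 shares of 0.722%, 0.890%, 2.55% and 3.80%.

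Fewer genes differed in T-like cells in the comparisons with A159V tumors, and Il1rl1 and Il13 were again among them. Between A159V IgG and WT IgG 2 of 27 genes passed 2-fold, where 1.97% of all genes did, namely Il1rl1 (log2 ratio 1.32, 0.84 to 1.81) and Il1rn, from 7.79 to 23.1 CPM (1.45, 0.75 to 2.15), of whose 31 UMIs 1 cell held 25.8%. The median log2 ratio was -0.19 over these genes and 0.02 over all genes. At the tumor-like ratio to Rhox5, the Rhox5 counts in T-like cells went with 1.67 CPM of Il1rl1 in WT IgG, 9.29 CPM in A159V IgG and 14.0 CPM in A159V anti-PD1, below the 19.0, 49.1 and 77.7 CPM measured. Between A159V anti-PD1 and A159V IgG 4 of 29 genes passed, 3 of them higher, where 2.03% of all genes did. The medians were 0.26 over the 29 genes and 0.07 over all genes. These were Il23r, a chain of the IL-23 receptor, from 11.2 to 26.9 CPM (1.20, 0.45 to 1.94), Il1b, from 8.93 to 22.4 CPM (1.24, 0.42 to 2.05), Il13 (1.07, 0.01 to 2.13) and, downwards, Il1rn (-1.22, -1.92 to -0.51). Averaged over libraries, Il23r stood at 16.9 CPM in dendritic-like cells and 13.9 CPM in T-like cells. In gamma-delta T-like cells it had 495 CPM in the 36 cells of A159V anti-PD1 and 89.7 CPM in the 35 cells of WT IgG. The 25 such cells of A159V IgG had 0 UMIs, so the 11.2 CPM of that library came from other T-like cells. None of the 4 passed under every setting. Under a stricter gate the log2 ratio was -0.23 (-1.43 to 0.98) for Il1b and 0.31 (-0.56 to 1.19) for Il23r. With classes taken from clusters it was 0.21 for Il1b and -0.78 for Il1rn, and with doublets kept 0.58 and -0.63. For Il13 it was 0.74 (-0.37 to 1.85) in cells with more than 1000 genes. For Il13 in A159V anti-PD1, 1 cell held 75.0% of the 28 UMIs.

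**Figure D5:**
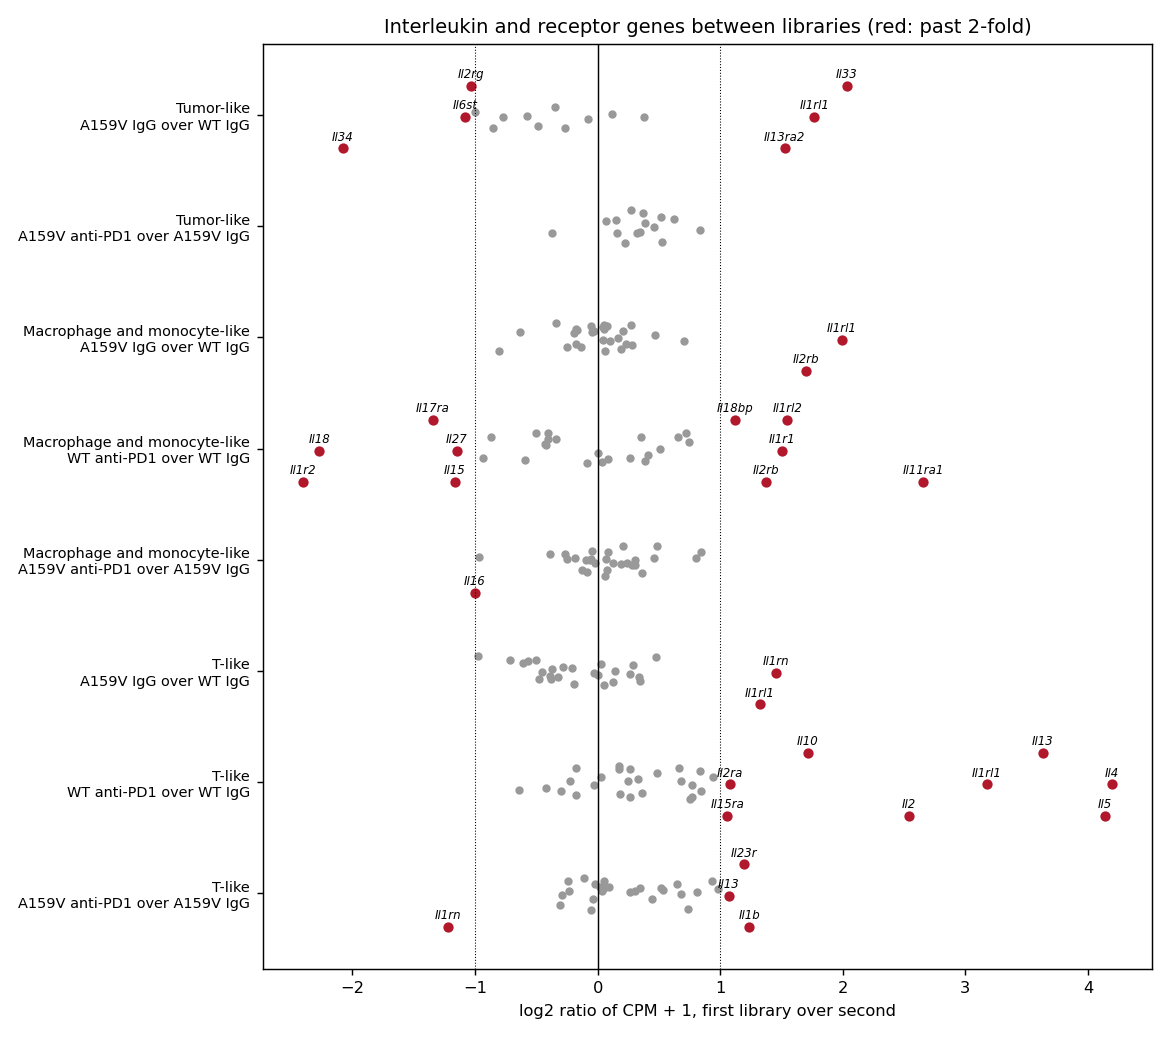
Log2 ratios of CPM plus 1 (horizontal axis) for the interleukin and receptor genes that could be compared, 1 point per gene, in 8 comparisons of 2 libraries within a cell class; red points with names passed 2-fold, and dotted lines mark log2 ratios of -1 and 1. The points of WT anti-PD1 over WT IgG spread furthest, with Il4 at 4.20 in T-like cells and Il1r2 at -2.40 in macrophage and monocyte-like cells, and no point is red for anti-PD1 in A159V tumor-like cells.

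Il7r and Il2rb differed by less than 2-fold between libraries in T-like cells. Il7r, the receptor of the survival factor IL-7, had 336, 297, 426 and 415 CPM in T-like cells, and Il2rb had 627, 713, 692 and 718 CPM. NK-like cells had the highest Il2rb, at 1129, 1443, 1082 and 1426 CPM. Their IL-18 receptor chains were highest in WT anti-PD1, with Il18r1 at 274, 528, 182 and 269 CPM and Il18rap at 225, 468, 168 and 261 CPM. Between the WT libraries 10 of 22 interleukin and receptor genes passed 2-fold in NK-like cells, where 24.6% of all genes did. The median log2 ratio of WT anti-PD1 over WT IgG was 0.95 over the 22 genes and 0.46 over all genes. Il12rb2, a chain of the IL-12 receptor, had 189.9, 295, 83.7 and 198 CPM in NK-like cells, lowest in A159V IgG. Il17a was read in gamma-delta T-like cells of WT IgG (8 UMIs) and A159V anti-PD1 (7 UMIs) and had 0 UMIs there in the other libraries.

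Dendritic-like cells held Il12b and Il4i1. Mature dendritic-like cells (58, 50, 81 and 61 cells), marked by Ccr7 and Fscn1, had Il12b at 445 CPM in WT IgG, 66.2 CPM in WT anti-PD1, 924 CPM in A159V IgG and 186 CPM in A159V anti-PD1. Both anti-PD1 libraries lay below both IgG libraries. Many genes differed in these small profiles. Between WT anti-PD1 and WT IgG 7 of 18 interleukin and receptor genes passed 2-fold, where 32.5% of all genes did. Between A159V IgG and WT IgG 8 of 17 passed beside 23.5%, and between the A159V libraries 2 of 16 beside 7.62%. Il4i1 had 262, 1216, 605 and 576 CPM in the same cells, Il15ra 138, 289, 281 and 400.5 CPM and Il7r 283, 438, 732 and 635 CPM, each lowest in WT IgG. Il4i1 overlaps Nup62 on the same strand, which makes its counts uncertain.

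Stromal-like and endothelial-like cells held receptors above all. Stromal-like cells had Il11ra1 at 581, 303, 506 and 589.8 CPM, Il6st at 271, 319, 242 and 365 CPM and Il13ra2 at 69.1, 50.4, 61.2 and 56.3 CPM. Among their cytokines Il33 and Il6 were lowest in WT anti-PD1, where Il6 had 29.5 CPM against 88.6 CPM in WT IgG, 45.8 CPM in A159V IgG and 50.9 CPM in A159V anti-PD1. The 157 endothelial-like cells of WT anti-PD1 had Il6st at 617 CPM and Il1r1 at 228 CPM, and were the class with the highest Il20rb (37.5 CPM) and Il17rd (41.4 CPM). The 30 mast or basophil-like cells of that library, too few for the ranking of classes, had 3624 CPM of Il4, 3015 CPM of Il6, 2808 CPM of Il1rl1 and 179.8 CPM of Il13. They held 57.2% of its gated Il4 UMIs and 0 UMIs of Il5.

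A list of 38 further pathway genes (kinases, STATs, adaptors, inflammasome parts and cytokines of the same families without the Il symbol) differed in few places. In macrophage and monocyte-like cells none of 30 genes passed 2-fold between A159V IgG and WT IgG or between A159V anti-PD1 and A159V IgG. Between WT anti-PD1 and WT IgG 1 of 30 was higher, Clcf1 (15.4 to 35.5 CPM), and 4 were lower, a share of the 30 near the 15.6% over all genes. The 4 were Osm, a gp130 cytokine (285 to 115 CPM), Irak2, an adaptor kinase of IL-1 receptors (435 to 181 CPM), Pycard, the inflammasome adaptor (270.0 to 130.3 CPM), and Stat4 (35.4 to 14.1 CPM). In T-like cells Nlrp3 was higher (3.43 to 21.5 CPM) and Pycard lower (148 to 54.2 CPM) in WT anti-PD1, which is 2 of 29 genes beside 12.6% of all genes, and none of 27 genes passed in the other 2 comparisons. In tumor-like cells only Osm passed among 22 genes, from 3.58 CPM in WT IgG to 11.4 CPM in A159V IgG, where 5.37% of all genes did, and none of 22 passed for anti-PD1 in A159V.

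The genes most like Il1b across 28 profiles of class and library, by Pearson's r of log2(CPM + 1), were Clec4n (0.978), Il1rn (0.977) and Nfam1 (0.976). For Il18 they were Pilra (0.931), Socs3 (0.924) and Zeb2 (0.920), and for Il7r they were Il21r (0.938), Cd200r1 (0.920) and St8sia1 (0.919). The profiles share their libraries and differ in depth, so these values describe likeness only.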

How the data were processed

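scRNA-seq was taken from 4 MC38 tumor libraries, 1 per group. The authors deposited raw UMI counts per gene and cell for barcodes called as cells, before their removal of background RNA and doublets. The submitters' processing notes list Cell Ranger 5.0.1 and mm10, the file headers Cell Ranger 7.2.0. Here, cells with more than 500 genes were kept, and doublets were predicted from 2 simulated doublets per cell and removed at 0.8% per 1000 cells (374 to 631 cells per library). No background RNA was subtracted. The part of stray RNA in these levels was not tested beyond the ratios given.

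Cells were gated with 17 marker lists, each with at least 2 detected markers. A cell needed at least 3 UMIs summed over the markers of a list. Its score for that class, a mean of scaled log levels of the markers, had to be at least 1.5 times that of any other class. This left 12.1% to 15.4% of cells without a class. Stromal-like cells also needed 1% of their UMIs in stromal markers. The numbers of the gate, the limit of tumor-like markers to the detected ones and the rule for T cell subsets were chosen after seeing the data, as were the comparisons within macrophage-like, monocyte-like and tumor-like clusters. Clusters came from 2000 variable genes, 20 principal components, 20 neighbors and Leiden clustering at resolution 1. The genes and lists reported here were chosen with earlier results of these data known.

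Levels are summed UMIs scaled to CPM with exact Poisson intervals. Log2 ratios add 1 CPM and have delta-method intervals, and shares have exact Clopper-Pearson intervals after thinning to 1500 UMIs per cell. A count of 0 was given the limit that 3 counts allow. Genes were named if they reached 20 CPM in their highest class of at least 50 cells or passed 2-fold in a comparison, and the subset values are shown for those. The ratio code was tested on simulated data. Alternatives were a minimum of 1000 genes, doublets kept, classes from clusters and a stricter gate (a score at least 3 times that of any other class). Others were median-of-ratios scaling, a pseudocount of 0.1 CPM, minimum levels of 50 CPM or none, and thinning to 1000 UMIs or not at all. Python 3.11.15, numpy 2.4.6, scipy 1.17.1, pandas 2.3.3, scanpy 1.11.5, igraph 0.11.9 and matplotlib 3.10.9 were used. Gene positions are from GENCODE (GRCm38). Beside Il2rg, Il11ra1 and Il4i1, other annotated genes also overlap Il1r1, Il1r2, Il1rl2, Il1rapl1, Il2ra, Il10ra, Il10rb, Il16, Il17c and Il31ra on the same strand. Their counts carry the same uncertainty.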

Additional observations from a re-analysis of the deposited data

Results flagged for a closer look

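Anti-PD1 went with opposite directions in the WT and A159V tumors for 4 gene and class pairs, each with 1 library per group, so the difference between the genotypes was not tested. In macrophage and monocyte-like cells the log2 ratio of anti-PD1 over IgG for Il17ra was -1.35 in WT and 0.30 in A159V. For Il27 it was -1.15 in WT and 0.37 in A159V. Neither Il17ra nor Il27 passed 2-fold in WT within macrophage-like or monocyte-like cells, whose mix differed between the WT libraries. For Il2rb the log2 ratio was 1.37 in WT and -0.96 in A159V, from counts that lay in few cells. The WT ratio of Il2rb was 0.66 with doublets kept and 0.78 under a stricter gate. In T-like cells the ratio for Il1rn was 0.84 in WT and -1.22 in A159V, where Il1rn, at 7.79 to 23.1 CPM, was far below its level in myeloid cells. The A159V ratio of Il1rn did not pass 2-fold with doublets kept or with classes taken from clusters.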

How the results depend on the processing

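Counts of interleukin and receptor genes past 2-fold depended on the level required, since many of them are low. The share of all genes is given only for the main rule, in whole classes and in kinds of cell. Counts at other minimum levels, gates and filters thus have no such share to be set against. With a minimum of 50 CPM in place of 10 CPM, macrophage and monocyte-like cells had 0 of 18 (from 2 of 29) for A159V IgG over WT IgG. The counts there were 6 of 22 (from 10 of 31) for WT anti-PD1 over WT IgG and 0 of 18 (from 1 of 29) for A159V anti-PD1 over A159V IgG. In T-like cells they were 0 of 16 (from 2 of 27), 5 of 20 (from 8 of 33) and 0 (from 4 of 29). In tumor-like cells of A159V IgG over WT IgG the count was 2 (from 6 of 16), which were Il33 and Il1rl1. With no minimum, 4 of 42 and 3 of 42 genes passed in macrophage and monocyte-like cells of A159V IgG over WT IgG and of A159V anti-PD1 over A159V IgG. The class definition also moved small counts. For A159V IgG over WT IgG in macrophage and monocyte-like cells 1 gene passed with classes from clusters and 1 under the stricter gate. For A159V anti-PD1 over A159V IgG there, 2 passed above 1000 genes per cell, 0 with doublets kept and 2 within macrophage-like cells. In T-like cells of this pair 2 passed with doublets kept, 2 with classes from clusters and 1 under the stricter gate. For WT anti-PD1 over WT IgG, 6 passed within macrophage-like and 6 within monocyte-like cells, of which 5 and 3 were among the 10, where 13.6% and 14.99% of all genes passed. Within the first tumor-like cluster, 4 of 23 passed for anti-PD1 in A159V, where 2.17% of all genes did, against 0 of 15 over all tumor-like cells. The log2 ratio of Il1b in T-like cells of A159V anti-PD1 over A159V IgG reversed to -0.23 under the stricter gate, and the cause was not tested.

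Of 33 log2 ratios, the number that moved by more than their interval was 7 with classes from clusters, 13 under the stricter gate (beside the 1 that reversed), 2 with median-of-ratios scaling, 2 with the smaller pseudocount, 1 with doublets kept and 0 above 1000 genes per cell. Above 1000 genes no neutrophil-like profile remained, and 14 genes changed their highest class, among them Il15ra, which had been highest in dendritic-like cells. Of 16 shares of T-like cells, 13 moved without thinning and 8 at 1000 UMIs. With 1 library per group, differences between animals cannot be told apart from those between groups, and depth limits the low cytokines, most of which rest on under 30 UMIs outside WT anti-PD1. No paired analysis was possible because each group had 1 library, and no library could be left out.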
